A study of Mus musculus with 7 samples.

Results

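The genes of the Notch pathway described here are 3 receptors (Notch1, Notch2 and Notch3), 3 ligands (Dll1, Dll3 and Jag1) and 4 genes that Notch signalling is known to switch on (Hes1, Hes5, Hey1 and Nrarp). All 10 were found by gene symbol among the 18193 genes that the platform annotation names through probes with 1 symbol, and 17 probes belonged to them. Where a gene had several probes, the brightest by its mean over all arrays stood for it, and the others are given beside it. All 10 passed the filter on dim probes, a mean log2 value of 3.99 (the 25th percentile of all probes), and were among the 14456 genes tested.

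Notch receptors are transmembrane proteins that are cut when a ligand of the Delta or Jagged type on a neighbouring cell pulls on them. The released intracellular part joins the DNA-binding protein RBPJ and turns on genes of the Hes and Hey families, whose repressor proteins hold back proneural transcription factors. In the developing brain this keeps neural progenitors undifferentiated and favours glial fates, and the pathway is widely studied in glioma.

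The arrays measured mRNA in tertiary gliomas (n = 3) and secondary gliomas (n = 4). Both groups consist of C57/Bl6 glioma cells with PDGF-B/EGFP overexpression, grown in NOD/SCID hosts, which lack functional B and T lymphocytes but keep myeloid cells. Secondary gliomas arose from grafted cells of early onset, low grade primary gliomas, and tertiary gliomas from grafted cells of a secondary glioma. Tumours were dissociated and EGFP-positive cells were sorted before RNA was extracted. The primary tumour, donor and host of each sample are not in the labels, which give neither ages nor the promoter of the transgene. P-values here therefore measure the spread between these samples, which may be partly technical.

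The values are log2 expression values made by the authors with RMA, and array medians lay between 5.57 and 5.64. The log2 values of 9 markers of oligodendrocyte precursors and proneural glioma were averaged within each sample. That mean was 10.5 ± 0.19 (SD over samples, n = 3) in tertiary gliomas and 10.4 ± 0.21 (n = 4) in secondary gliomas. None of the 9 was called at an adjusted p under 0.05 (0 also at an unadjusted p under 0.05, limma). Markers of microglia and macrophages were lower in tertiary gliomas in 16 of 16 tested genes, with a median log2 fold change of -4.21. Their mean log2 level ranged over 6.17 to 7.13 in tertiary gliomas and over 10.5 to 11.3 in secondary gliomas. Of the 16, 1 (Itgam) was below the dim filter in every tertiary sample and passed it only through the secondary gliomas. No detection calls were used, so whether the others lay above background in tertiary gliomas was not tested. Markers of mature oligodendrocytes were also lower, with 3 of 6 called. Over all genes tested, 6.33% were called lower. In RNA from pooled sorted cells, fewer cells of a type and less RNA per cell cannot be told apart. The purity of the sort was not tested.

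RefSeq start-site windows (assembly GRCm38.p6, 250 bases before to 50 bases after an annotated start) were given for 8 of the 10 genes, in 9 windows, and those of Hes5, Notch2 and Notch1 are shown. Hes5 is the only one of the 9 windows with the RBPJ core motif, and Notch2 and Notch1 are the receptors whose sample groups did not overlap. Each is written 5′ to 3′ along the gene, with matches to the core letters TGGGAA or their reverse complement TTCCCA in capitals. The Hes5 window is chr4:154960673-154960972 on the plus strand, the Notch2 window chr3:98013288-98013587 on the plus strand and the Notch1 window chr2:26503773-26504072 on the minus strand.
Hes5: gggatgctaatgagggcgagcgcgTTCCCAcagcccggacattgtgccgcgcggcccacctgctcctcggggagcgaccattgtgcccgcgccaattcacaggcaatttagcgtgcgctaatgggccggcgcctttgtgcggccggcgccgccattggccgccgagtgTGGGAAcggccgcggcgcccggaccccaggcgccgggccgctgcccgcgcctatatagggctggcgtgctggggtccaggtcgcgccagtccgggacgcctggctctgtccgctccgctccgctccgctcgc
Notch2: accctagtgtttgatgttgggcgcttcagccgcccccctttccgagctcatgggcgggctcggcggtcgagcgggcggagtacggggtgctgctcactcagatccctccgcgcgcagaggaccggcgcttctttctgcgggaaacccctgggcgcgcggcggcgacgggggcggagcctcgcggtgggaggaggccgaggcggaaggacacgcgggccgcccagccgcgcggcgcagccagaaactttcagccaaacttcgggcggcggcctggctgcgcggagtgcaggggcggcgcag
Notch1: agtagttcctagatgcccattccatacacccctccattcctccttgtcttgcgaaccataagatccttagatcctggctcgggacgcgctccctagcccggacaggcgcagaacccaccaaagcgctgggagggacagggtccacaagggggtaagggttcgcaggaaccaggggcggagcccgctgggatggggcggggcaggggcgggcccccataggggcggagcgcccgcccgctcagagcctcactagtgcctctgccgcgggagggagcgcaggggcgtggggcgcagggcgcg
The Hes5 window holds 2 matches, whose first bases lie 226 and 82 bases before the start site. Of 32851 RefSeq windows of the same length, 25.6% held at least 1 match and 3.79% held 2 or more. Separately, the E-box letters CACGTG, a palindrome that Hes- and Hey-type factors among others can bind, were found in the Nrarp window and in none of the other 8, against 7.15% of all windows, and no window of these genes holds both motifs. The GC content was 72.7% in the Hes5 window, 73.0% in the Notch2 window and 68.3% in the Notch1 window, where the median of all windows was 52.7%. These matches are descriptions of letters, not of binding.

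The comparison of tertiary with secondary gliomas asks what changed between the first and the second transplant. Among the 10 genes, Notch2 was lower in tertiary gliomas and the other 9 did not pass an adjusted p of 0.05 (limma, Benjamini-Hochberg over all genes tested). Over all genes tested, 6.33% were called lower and 1.04% higher (7.37% in all), so that 1 of 10 is a share near the background and says nothing particular about the group. The 10 genes had a median log2 fold change of -0.0101, beside 0.09 for all genes tested. The 2 groups of samples did not overlap for Notch2 and Notch1, 2 of the 10, where 21.9% of all genes tested did not overlap. No member was called higher, and 1 was higher at an unadjusted p under 0.05, beside 12.1% of all genes.

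**Figure D1:**
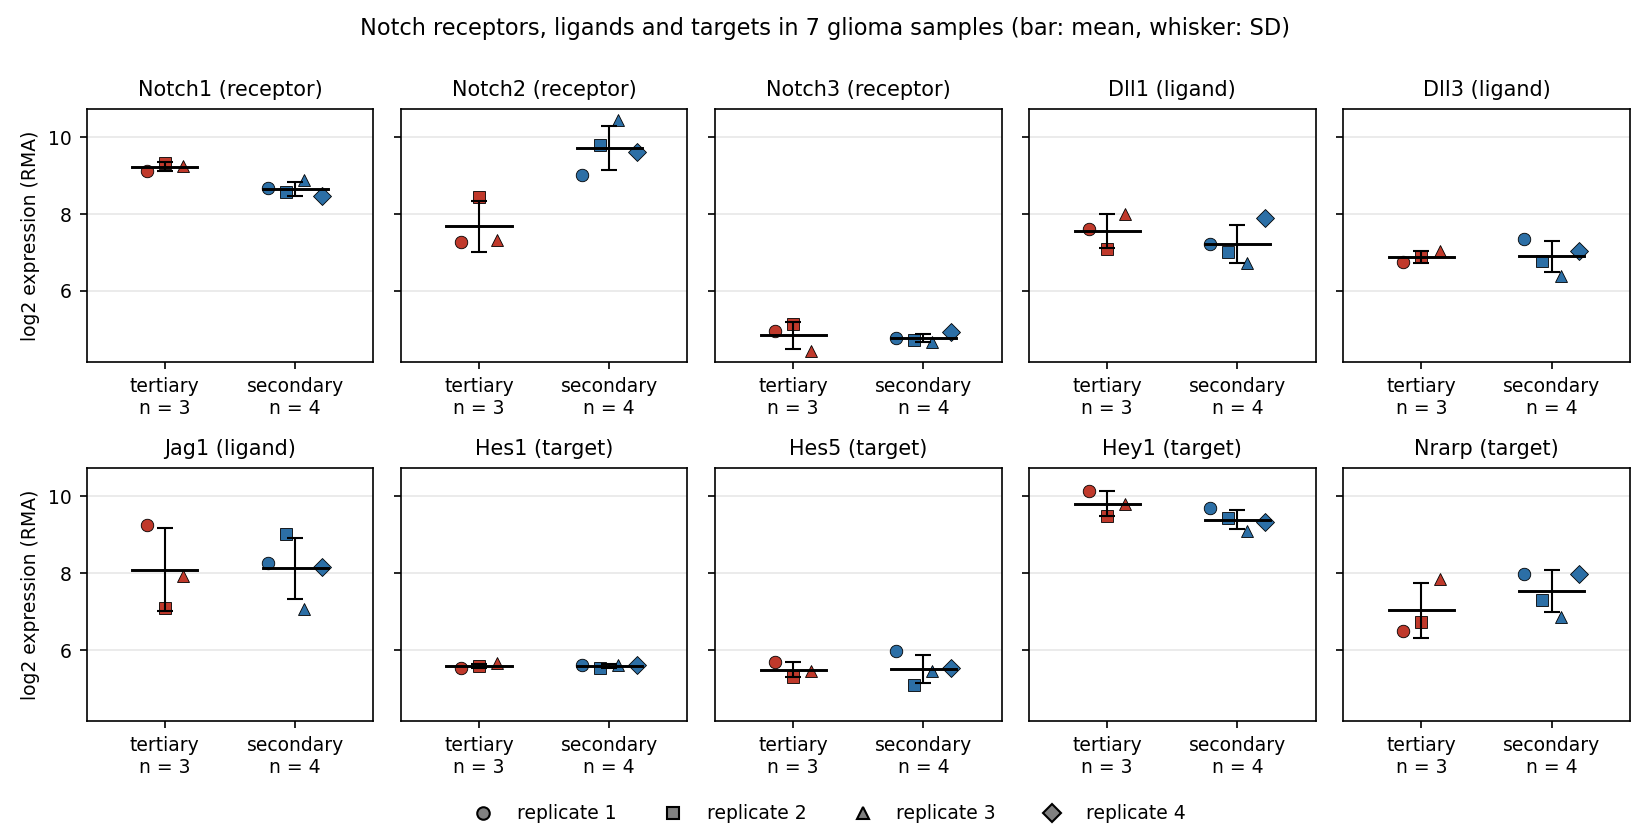
Log2 expression (RMA) of the 10 genes, with tertiary gliomas (n = 3) left of secondary gliomas (n = 4) in each panel; symbols mark samples, bars means and whiskers SD. Notch2 lies at 7.28 to 8.45 in tertiary and 9.03 to 10.4 in secondary gliomas, while the groups overlap in 8 of the 10 genes; levels of different genes come from different probes and are not comparable.

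Among the receptors, Notch2 had the only called change. Notch2, a receptor used by glial and by several blood lineages, had log2 values of 7.28, 8.45 and 7.32 in tertiary gliomas 1 to 3, against 9.03, 9.79, 10.4 and 9.62 in secondary gliomas 1 to 4. Every tertiary value lay below every secondary value, and tertiary glioma 2 was the closest to the secondary range. The group means were 7.69 ± 0.66 (SD, n = 3) in tertiary and 9.72 ± 0.58 (SD, n = 4) in secondary gliomas. The log2 fold change was -2.03 ± 0.39 (SE), a level 4.10-fold lower in tertiary gliomas, with a 95% interval of -2.94 to -1.13 and an adjusted p of 0.0192.

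The call of Notch2 was lost in 3 of the 7 fits that left out 1 sample. Its adjusted p was 0.0831 without tertiary glioma 3, 0.0585 without secondary glioma 2 and 0.0514 without secondary glioma 4, and the log2 fold change stayed between -2.42 and -1.80 over the 7 fits that left out 1 sample. Without secondary glioma 3 and tertiary glioma 1 together it was -1.59 with an adjusted p of 0.0661. The second, dimmer Notch2 probe had log2 values of 6.55, 7.11 and 6.91 in tertiary gliomas and 7.11, 7.19, 7.95 and 7.30 in secondary gliomas. These values met at 7.11 in tertiary glioma 2 and secondary glioma 1. The log2 fold change of that probe was -0.53 ± 0.24 (SE) with an adjusted p of 0.234 over all probes, and the mean of both probes gave -1.28 with an adjusted p of 0.0398.

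Like Notch2, microglia and macrophage markers were lower in tertiary gliomas. On the brightest Notch2 probe the secondary gliomas rose in the order 1, 4, 2 and 3. The mean of the 16 marker genes gave the same order (10.5, 10.8, 10.9 and 11.3). On the second Notch2 probe secondary glioma 4 (7.30) lay above secondary glioma 2 (7.19), so that order differed. Within the tertiary gliomas the orders differed at the low end, and tertiary glioma 2 was highest in both. The part of these cells in the Notch2 result was not tested.

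Notch1, the receptor best known for maintaining neural progenitors, had log2 values of 9.11, 9.33 and 9.25 in tertiary gliomas 1 to 3, against 8.67, 8.58, 8.88 and 8.48 in secondary gliomas 1 to 4. All 3 tertiary values lay above all 4 secondary values. The means were 9.23 ± 0.11 (SD, n = 3) in tertiary and 8.65 ± 0.17 (SD, n = 4) in secondary gliomas. The log2 fold change was 0.58 ± 0.14 (SE; 95% interval 0.25 to 0.91), and its adjusted p of 0.0508 missed the threshold. The second, dimmer Notch1 probe had 8.10, 8.44 and 8.30 in tertiary gliomas and 8.11, 7.92, 7.60 and 8.00 in secondary gliomas, where tertiary glioma 1 fell just below secondary glioma 1. It gave 0.37 ± 0.17 (SE, adjusted p = 0.234 over all probes). Notch1 passed without tertiary glioma 1 (adjusted p = 0.0430) and without secondary glioma 3 (0.0350), and over all alternatives its adjusted p ranged from 0.00973 to 0.234.

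Notch3, a receptor best known from the mural cells of blood vessels, had log2 values of 4.97, 5.13 and 4.45 in tertiary gliomas and 4.77, 4.73, 4.68 and 4.93 in secondary gliomas. The groups overlapped, and the secondary values lay inside the tertiary range. Tertiary minus secondary was 0.07 ± 0.18 on the log2 scale (SE; 95% interval -0.35 to 0.50, adjusted p = 0.843). The suffix of this probe marks it as able to bind several transcripts, and the other Notch3 probe had a mean of 3.86, below the dim filter. The mean of 9 mural cell markers was 4.49 ± 0.03 (SD over samples) in tertiary and 4.91 ± 0.13 in secondary gliomas. Of the 8 that were tested, 4 had negative and 4 positive log2 fold changes, with a median of -0.16. The 2 called lower, Abcc9 (-1.59) and Anpep (-1.88), passed the dim filter only through the secondary gliomas.

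**Figure D2:**
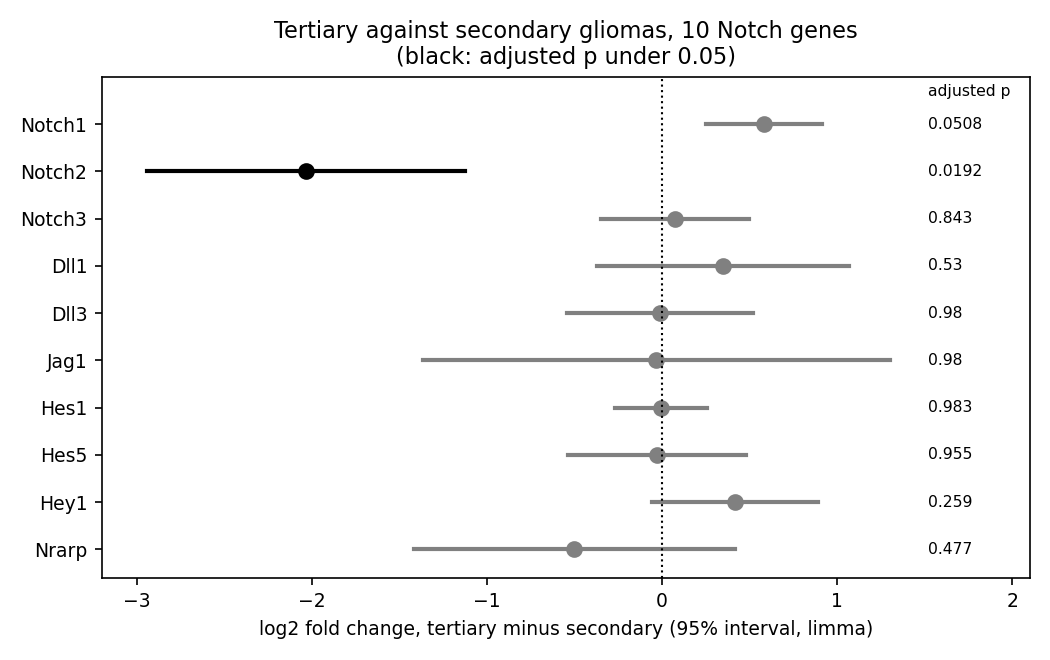
Log2 fold change, tertiary minus secondary gliomas (n = 3 and 4), with the 95% interval from limma on the x axis and the 10 genes down the page; black marks an adjusted p under 0.05 and the adjusted p is printed at the right. The interval of Notch2 runs from -2.94 to -1.13, Notch1 is the only other gene whose interval leaves out 0, and Jag1 has an interval from -1.37 to 1.30.

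None of the ligands was called, and none of the 3 had an unadjusted p under 0.05 (limma). Jag1, a Jagged-type ligand, varied the most between samples of 1 group. Its log2 values were 9.24, 7.10 and 7.93 in tertiary gliomas 1 to 3, against 8.25, 9.01, 7.07 and 8.16 in secondary gliomas 1 to 4. Tertiary glioma 1 and secondary glioma 2 were high, tertiary glioma 2 and secondary glioma 3 were low, and the groups overlapped almost wholly. The means were 8.09 ± 1.08 (SD, n = 3) in tertiary and 8.12 ± 0.80 (SD, n = 4) in secondary gliomas. Jag1 had a log2 fold change of -0.034 ± 0.58 (SE), and its 95% interval of -1.37 to 1.30 leaves room for a change of more than 2-fold either way.

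The 3 Jag1 probes gave the same picture. In each of them tertiary glioma 1 was the highest of the 7 samples and secondary glioma 2 the next, with 8.59 and 8.01 on the second probe and 8.53 and 7.97 on the third. Tertiary glioma 2 and secondary glioma 3 were the 2 lowest on all 3 probes, at 6.23 and 6.30 on the second probe and at 5.80 and 5.56 on the third. The within-group differences of Jag1 were therefore shared by separate probes of the gene.

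**Figure D3:**
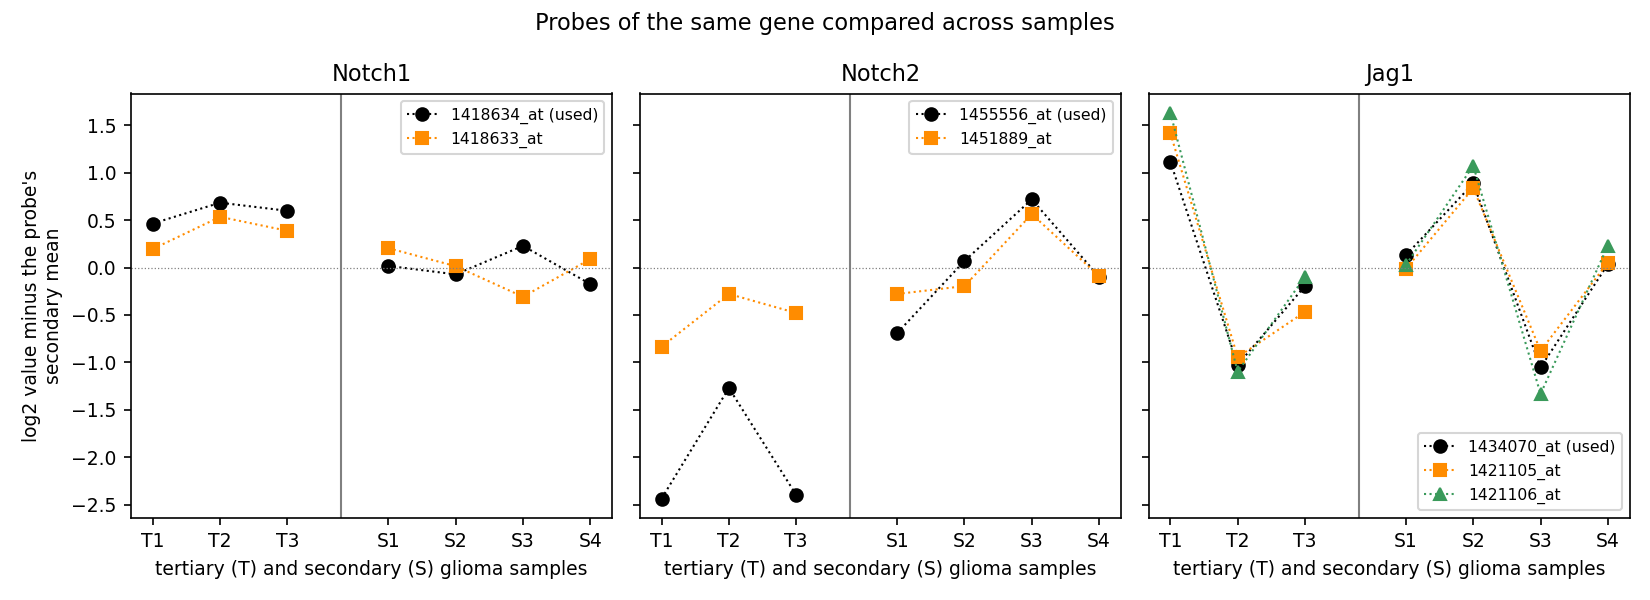
Log2 value minus the probe's secondary mean (y axis) for each probe of Notch1, Notch2 and Jag1 in tertiary gliomas 1 to 3 (T1 to T3) and secondary gliomas 1 to 4 (S1 to S4); dotted lines only join values of 1 probe. The 3 Jag1 probes share their 2 highest and 2 lowest samples, while the 2 Notch2 probes differ in size, with log2 fold changes of -2.03 and -0.53.

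Dll1, a Delta-type ligand that activates receptors on neighbouring cells, had log2 values of 7.60, 7.10 and 7.99 in tertiary gliomas and 7.22, 7.02, 6.73 and 7.89 in secondary gliomas. Tertiary glioma 3 and secondary glioma 4 were the highest, one in each group. Dll1 had a log2 fold change of 0.35 ± 0.31 (SE; 95% interval -0.37 to 1.07, adjusted p = 0.530). Dll3, a divergent Delta protein that does not activate receptors from outside and is known as a marker of proneural tumours, had 6.74, 6.87 and 7.04 in tertiary gliomas and 7.36, 6.79, 6.40 and 7.05 in secondary gliomas. The tertiary values lay inside the secondary range. Dll3 had a log2 fold change of -0.014 ± 0.23 (SE; 95% interval -0.54 to 0.52, adjusted p = 0.980).

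None of the 4 target genes was called, and none had an unadjusted p under 0.05 (limma). Hey1, a repressor of the Hey family, had log2 values of 10.1, 9.49 and 9.79 in tertiary gliomas 1 to 3 and 9.70, 9.44, 9.09 and 9.32 in secondary gliomas 1 to 4. Tertiary gliomas 1 and 3 lay above all secondary gliomas, and tertiary glioma 2 lay inside their range. The means were 9.80 ± 0.32 (SD, n = 3) in tertiary and 9.39 ± 0.25 (SD, n = 4) in secondary gliomas. This gave a log2 fold change of 0.42 ± 0.20 (SE; 95% interval -0.06 to 0.89) with an adjusted p of 0.259, and Hey1 has 1 probe here.

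Nrarp, a feedback inhibitor that binds the Notch intracellular part, had 6.51, 6.74 and 7.85 in tertiary gliomas and 7.98, 7.31, 6.86 and 7.97 in secondary gliomas. Tertiary gliomas 1 and 2 lay below all secondary gliomas, and tertiary glioma 3 lay close to the 2 highest of them. The log2 fold change was -0.50 ± 0.40 (SE; 95% interval -1.42 to 0.41, adjusted p = 0.477), and leaving out tertiary glioma 3 gave -0.91 where leaving out tertiary glioma 1 gave -0.24. The second Nrarp probe gave -0.13 ± 0.37 (SE, adjusted p = 0.866 over all probes).

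Hes5, a Hes repressor of neural progenitors, had log2 values of 5.70, 5.30 and 5.47 in tertiary gliomas and 5.99, 5.10, 5.47 and 5.53 in secondary gliomas. The tertiary values lay inside the secondary range. Hes5 had a log2 fold change of -0.028 ± 0.22 (SE; 95% interval -0.54 to 0.48, adjusted p = 0.955). The second Hes5 probe carries the suffix of probes that can bind unrelated transcripts and gave -0.19 ± 0.36 (SE, adjusted p = 0.786 over all probes). Whether the pair of RBPJ core matches in the Hes5 window shown above bears on the Hes5 level was not tested.

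Hes1, the most general Hes target of Notch, was almost flat on this probe. Its log2 values were 5.53, 5.57 and 5.65 in tertiary gliomas and 5.61, 5.52, 5.61 and 5.61 in secondary gliomas. Secondary gliomas 1, 3 and 4 shared 1 identical value, the whole range over 7 samples was 0.13, and all values lay near the array medians of 5.57 to 5.64. Hes1 had a log2 fold change of -0.0059 ± 0.11 (SE; 95% interval -0.27 to 0.26, adjusted p = 0.983). No detection calls were used here, so whether this single probe read Hes1 above background was not tested.

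The rest of the pathway was taken from 8 lists, of which 62 genes were analysed here and 54 were tested. Of these, 4 were lower and none was higher in tertiary gliomas, and the other 50 did not pass. The 4 were the protease Furin, the sheddase Adam17, the ubiquitin ligase Dtx4 and the endocytic adaptor Numb. They make up 7.41% of the 54, beside 6.33% called lower over all genes, and the median log2 fold change of the 54 was 0.0016, beside 0.09 over all genes. At an unadjusted p under 0.05 there were 8 lower and 2 higher (limma), beside 11.7% lower and 12.1% higher over all genes, and the sample groups did not overlap in 24.1% of the 54, beside 21.9% of all genes.

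**Figure D4:**
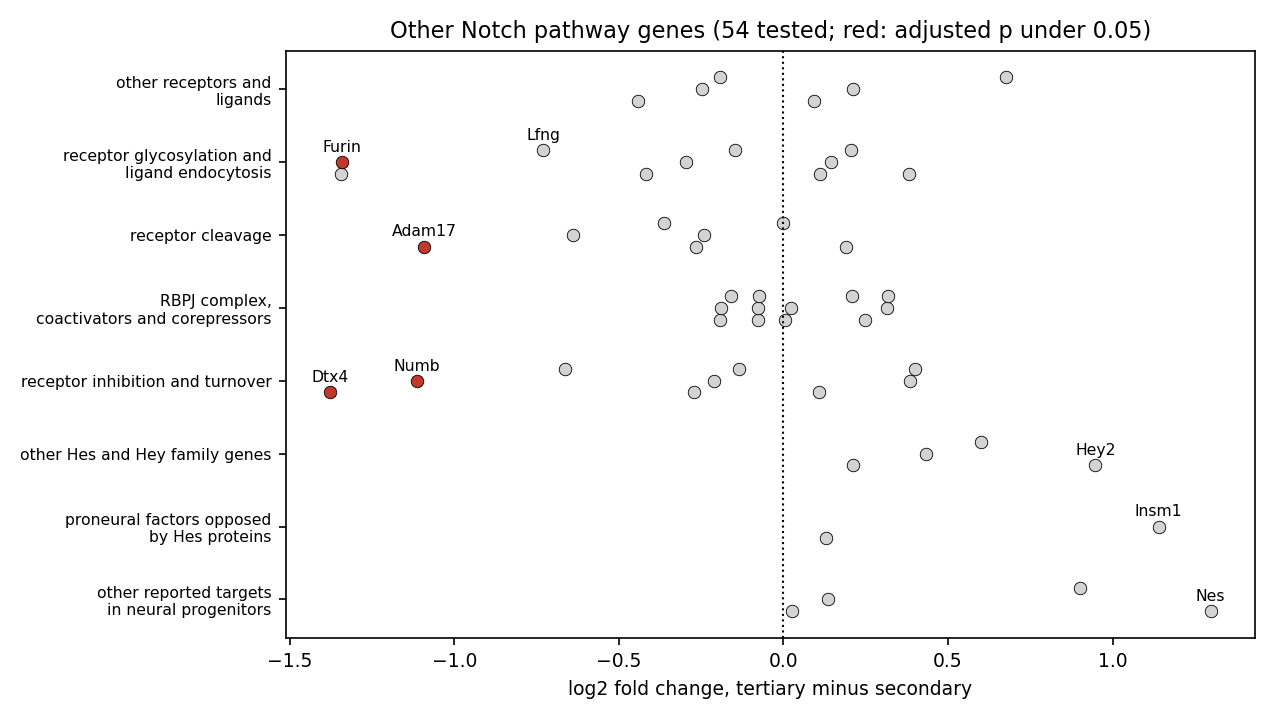
Log2 fold change, tertiary minus secondary gliomas (x axis), of the 54 tested genes in 8 lists of other Notch pathway genes (rows, with points spread vertically for legibility); red marks an adjusted p under 0.05. The 4 called genes, Furin, Adam17, Dtx4 and Numb, all lie between -1.38 and -1.09, and no gene on the positive side was called.

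In the list for receptor glycosylation and ligand endocytosis, 1 of 10 genes was lower, beside 6.33% of all genes, and 9 did not pass. The 1 was Furin, a protease kept in that list, so no gene of glycosylation or ligand endocytosis itself was called. Furin, the convertase that cuts Notch receptors on their way to the surface, had log2 values of 6.79, 6.93 and 6.76 in tertiary gliomas and 8.00, 8.14, 8.61 and 7.91 in secondary gliomas. Every tertiary value lay below every secondary value. Furin changed by -1.34 ± 0.19 on the log2 scale (SE, adjusted p = 0.00374) and kept its call under each of 17 alternatives, with an adjusted p of 0.00136 to 0.0357. Lfng, a fringe glycosyltransferase that tunes which ligands a receptor answers, had 6.76, 5.49 and 5.87 in tertiary gliomas and 6.52, 6.76, 7.27 and 6.53 in secondary gliomas. Tertiary glioma 1 lay inside the secondary range. Lfng was at -0.73 ± 0.32 (SE, adjusted p = 0.216), or -1.09 with an adjusted p of 0.0372 without tertiary glioma 1. On the second Lfng probe all tertiary values lay below all secondary values, at -1.26 ± 0.40 (SE, adjusted p = 0.120 over all probes). The mean of both probes gave -0.997 with an adjusted p of 0.0824.

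Among the 7 tested genes of receptor cleavage, 1 was lower, beside 6.33% of all genes, and 6 did not pass. Adam17, one of the metalloproteases that can cut Notch receptors, had 7.65, 7.73 and 8.20 in tertiary gliomas and 8.61, 8.80, 9.43 and 8.96 in secondary gliomas. All tertiary values were below all secondary values, on each of its 3 probes. Adam17 changed by -1.09 ± 0.23 on the log2 scale (SE, adjusted p = 0.0278). The call was lost without tertiary glioma 1 (adjusted p = 0.0536) or 2 (0.111) and without secondary glioma 2 (0.0613) or 4 (0.0740).

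Among the 9 genes of receptor inhibition and turnover, 2 were lower, beside 6.33% of all genes, and 7 did not pass. Dtx4, a Deltex-type ubiquitin ligase of Notch traffic, had 7.74, 7.31 and 7.44 in tertiary gliomas and 8.86, 8.71, 9.29 and 8.65 in secondary gliomas. It changed by -1.38 ± 0.20 on the log2 scale (SE, adjusted p = 0.00424) and kept its call under each of 17 alternatives. Its second probe gave -0.91 ± 0.15 with an adjusted p of 0.0115 over all probes. Numb, which antagonises Notch by sending the receptor to endocytosis, had 7.74, 7.39 and 7.60 in tertiary gliomas and 8.28, 8.52, 9.34 and 8.61 in secondary gliomas. The groups did not overlap, and secondary glioma 3 was the highest. Numb changed by -1.11 ± 0.25 (SE, adjusted p = 0.0391), and the call was lost without tertiary glioma 2 (adjusted p = 0.142) or 3 (0.115) and without secondary glioma 2 (0.0761) or 4 (0.0847). The call was also lost with no dim filter (adjusted p = 0.05015) and with the replicate block (0.109). On the second Numb probe the groups overlapped, at -0.70 ± 0.40 (SE, adjusted p = 0.338 over all probes). Averaging both Numb probes gave -0.91 with an adjusted p of 0.134.

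**Figure D5:**
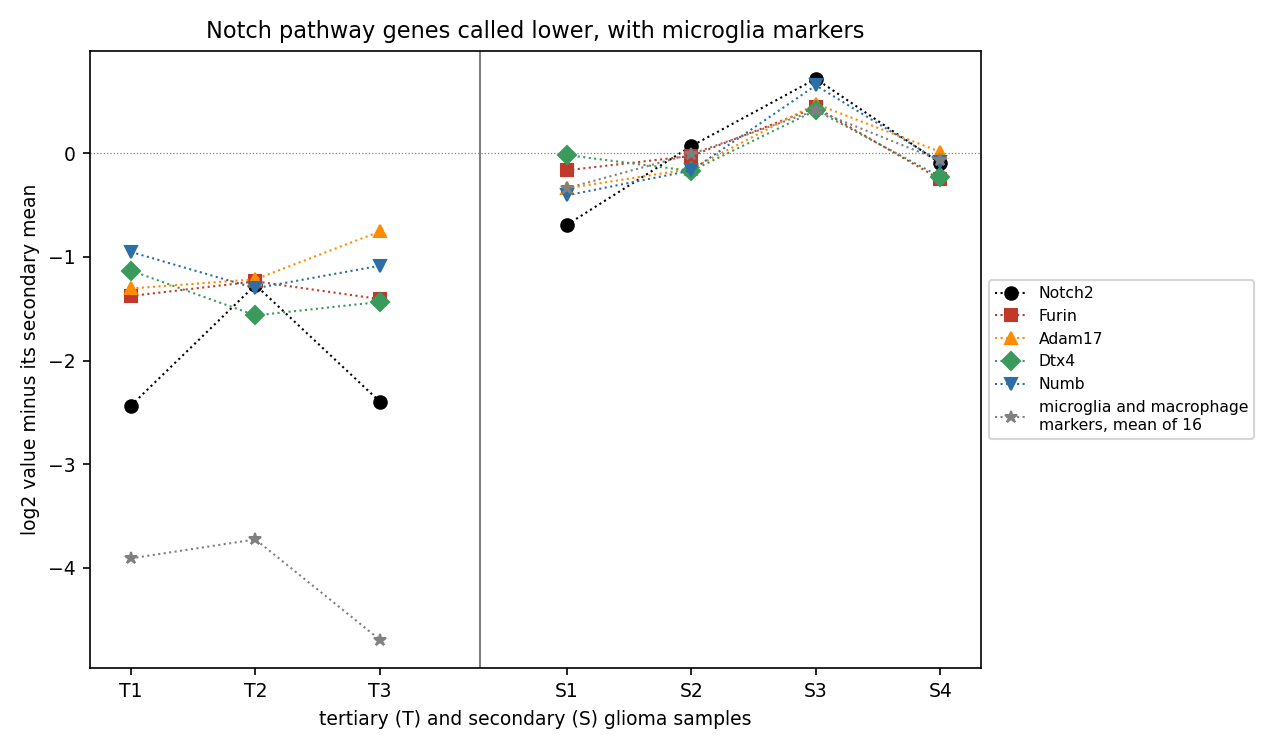
Log2 value minus the secondary mean (y axis) of the 5 Notch pathway genes called lower and of the mean of 16 microglia and macrophage markers, in tertiary gliomas 1 to 3 (T1 to T3) and secondary gliomas 1 to 4 (S1 to S4); dotted lines only join values of 1 gene. All 5 genes and the marker mean were highest in secondary glioma 3, and in tertiary gliomas the marker mean lies further below 0 than any of the genes.

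Like these 4 genes, microglia and macrophage markers were lower in tertiary gliomas, at a median log2 fold change of -4.21. Among them Ptprc was at -5.37, Cd68 at -3.97 and Cx3cr1 at -4.71. Over all genes tested, 6.33% were called lower. Secondary glioma 3 had the highest marker mean (11.3) and the highest value of Notch2, Furin, Adam17, Dtx4 and Numb. For Notch1, which was not called, it was the highest secondary glioma on the probe used (8.88), below every tertiary value. On the second Notch1 probe it was the lowest of the 7 samples (7.60). Beyond that sample the orders differed: in none of Furin, Adam17, Dtx4 and Numb were the secondary gliomas in the order of the marker mean, and the tertiary gliomas were in that order for Furin only. Adam17 was highest in tertiary glioma 3, where the marker mean was lowest. The part of these markers' cells in the 5 results was not tested.

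None of the 12 tested genes of the RBPJ complex, its coactivators and corepressors was called, and none had an unadjusted p under 0.05 (limma). Rbpj itself had 6.88, 7.20 and 7.66 in tertiary gliomas and 6.54, 7.51, 7.52 and 7.40 in secondary gliomas. The tertiary values spanned much of the secondary range, and secondary glioma 1 was the lowest sample. Rbpj had a log2 fold change of 0.0034 ± 0.29 (SE; 95% interval -0.67 to 0.68, adjusted p = 0.996). The members of that list with the lowest p were the corepressor Spen (0.32 ± 0.14, adjusted p = 0.216) and the acetyltransferase Crebbp (-0.19 ± 0.11, adjusted p = 0.347). Of the 6 tested other receptors and ligands none was called and none had an unadjusted p under 0.05 (limma). In that list Dner was at -0.44 ± 0.25 (adjusted p = 0.321) and Dlk1 at 0.68 ± 0.50 (adjusted p = 0.446), where Dlk1 had 6.37 in tertiary glioma 2 and no more than 4.45 in any other sample. Without tertiary glioma 2 Dlk1 was at -0.037.

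The 4 tested other Hes and Hey genes and the 4 other reported targets in neural progenitors had positive log2 fold changes without a call, at medians of 0.52 and 0.52 (limma, 1 unadjusted p under 0.05 in each list). A positive sign was also the more common one over all 14456 genes tested, with 8766 positive and 5690 negative. Hey2, a Hey-family repressor, had 6.60, 7.42 and 7.73 in tertiary gliomas and 6.36, 6.33, 5.86 and 6.67 in secondary gliomas. Tertiary gliomas 2 and 3 lay above all secondary samples and tertiary glioma 1 did not. Hey2 was at a log2 fold change of 0.95 ± 0.30 (SE, adjusted p = 0.108), or 1.27 with an adjusted p of 0.0194 without tertiary glioma 1. Hes6, a Hes relative that opposes Hes1, was at 0.43 ± 0.24 (adjusted p = 0.320).

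Nes, the intermediate filament protein nestin of neural progenitors, had 7.36, 8.79 and 9.27 in tertiary gliomas and 7.14, 7.01, 6.95 and 7.60 in secondary gliomas. Tertiary gliomas 2 and 3 were high, and tertiary glioma 1 lay inside the secondary range. Nes was at a log2 fold change of 1.30 ± 0.42 (SE, adjusted p = 0.121), or 1.86 with an adjusted p of 0.00489 without tertiary glioma 1. The other 2 Nes probes did not overlap between groups and gave 1.19 (adjusted p = 0.0395 over all probes) and 1.15 (adjusted p = 0.0898). Sox9, a glial and progenitor transcription factor, was at 0.90 ± 0.82 (adjusted p = 0.540), with a spread within each group of 1.34 (SD) in tertiary and 1.31 in secondary gliomas.

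Of the proneural factors that Hes proteins oppose, 2 were tested and 5 were below the dim filter. Neurog1 was at 0.13 ± 0.17 (SE, adjusted p = 0.690). Insm1, a zinc finger factor of newborn neurons and endocrine cells, had 3.66, 5.78 and 5.17 in tertiary gliomas and 3.40, 4.28, 2.97 and 4.28 in secondary gliomas. Its mean was 4.87 in tertiary gliomas and 3.73 in secondary gliomas, so that it passed the dim filter of 3.99 only through the tertiary gliomas. It was at 1.14 ± 0.54 (SE, adjusted p = 0.242). Leaving out tertiary glioma 1 gave 3 of the 54 other pathway genes called higher (Hey2, Nes and Insm1), where all 7 samples gave 0. Over all genes that fit called 5.40% higher, where all 7 samples gave 1.04%, so that 3 of 54 is near the background of the same fit.

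For the members with the lowest p, the genes with the most similar pattern were found by the root mean square difference over the 7 arrays, after each gene's log2 values were centred on their own mean. For Notch2, whose own values had a root mean square of 1.13 about their mean, these were Depdc7 (0.21), Tpd52 (0.24) and the haem-binding protein gene Hebp1 (0.24). Each of these was called lower in tertiary gliomas, with log2 fold changes of -1.95, -2.11 and -2.21. Genes picked for matching Notch2 over the same arrays share its group difference by selection, so these calls are not separate evidence. The adjusted p of Depdc7 was 0.0494 (limma). Depdc7 had 3.25, 4.42 and 3.21 in tertiary gliomas 1 to 3. Its tertiary mean lay below the dim filter, which it passed only through the secondary gliomas. For Notch1, with a root mean square of 0.31, they were the transcription factor gene E2f4 (0.0914), the peroxidasin gene Pxdn (0.0923) and Snapc4 (0.0957), at log2 fold changes of 0.57, 0.64 and 0.55. For Hey1, also at 0.31, they were Chrna7 (0.0319), Mapk9 (0.0658) and the syndecan gene Sdc2 (0.0683), none of them called. Jag1, added after its values were seen, had a root mean square of 0.78 and lay nearest to the acetylcholinesterase gene Ache (0.11). Ache had 7.04, 5.11 and 5.84 in tertiary gliomas and 6.15, 7.05, 5.18 and 5.94 in secondary gliomas, high in the same 2 samples as Jag1. With 14456 genes and 7 arrays, close matches occur among many genes, and nothing about function follows from them.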

How the data were processed

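RNA of EGFP-positive sorted cells (30 ng each, amplified to cDNA) was hybridised to Affymetrix mouse arrays. The deposited values are log2 expression from RMA, which the authors ran per the submitters' processing notes and which corrects background, quantile-normalizes and summarises probes. The RMA version is not given in these sources. That the scale is log2 was read from the range of the values. RMA makes array distributions alike, so shared shifts are hidden, and differences of dim probes shrink. The number of arrays limits the precision, and scan dates were not used here, so no batch was tested.

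Of 45101 probes, 34945 had 1 gene symbol in the platform annotation, 932 had several, 9160 had none and 64 were controls. Of the named ones 34741 had a gene identifier in the RefSeq table of GRCm38.p6, and 0 symbols needed updating. The brightest probe stood for a gene. Genes below the 25th percentile of probe means were left out. Tertiary minus secondary gliomas were fitted with limma 3.58.1 (lmFit, eBayes) in R 4.3.3, Benjamini-Hochberg over 14456 genes, threshold 0.05. A gene past the threshold is described as called. Summaries and figures used Python 3.11.15, pandas 2.3.3 and matplotlib 3.10.9. In simulated data with the group sizes of this comparison, 14456 genes were fitted. The recovered share was 50% of 100 genes with a log2 change of 1. It was 85% of 100 genes with a log2 change of 2, beside 11 false calls. Only these genes were changed, where 1066 were called in the real data, so the shares may not carry over.

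The members and lists were chosen with earlier results of these data known. Text names all members, up to 4 called genes per pathway list or the 2 with the lowest p, Rbpj, Lfng and Numb, and 3 microglia markers; another gene of that rule is not reported here. The lists of endothelial, mural cell, astrocyte, oligodendrocyte and neuron markers were summarised too: 0 of 8, 2 of 8, 0 of 8, 3 of 6 and 0 of 8 tested genes were called lower and none higher, with 3, 2, 2, 6 and 0 lower and 1, 0, 0, 0 and 2 higher at an unadjusted p under 0.05 (limma). Over all genes tested, 6.33% were called lower and 1.04% higher. At an unadjusted p under 0.05 (limma) the shares over all genes were 11.7% lower and 12.1% higher. Abcc9 and Anpep (the mural genes called), Pecam1, Aldh1l1 and Gja1 had tertiary means below the dim filter and passed it only through the secondary gliomas. Alternatives were the probe rule, dim filter, normalization, variance model, array weights, threshold, replicate block and leaving out samples. Same-numbered samples did not deviate together (correlations 0.0361, -0.14 and 0.0146 over genes). Differently numbered samples had correlations from -0.245 (tertiary glioma 1 with secondary glioma 4) to 0.269 (tertiary glioma 1 with secondary glioma 2). Such correlations cannot exclude a shared donor or batch, and the labels give neither. At most 5.39% of values were identical between 2 arrays.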

Additional observations from a re-analysis of the deposited data

Results flagged for a closer look

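In 26 named genes the spread of the 4 secondary gliomas was examined for a sample far from the other 3, where chance gives about 1 in 20, and 2 genes met the criterion. The Rbpj value of secondary glioma 1, 6.54, lay below the other secondary gliomas at 7.40 to 7.52. The other 2 Rbpj probes had 7.55 and 7.03 in secondary glioma 1, the highest of the secondary gliomas on both. The Hes1 value of secondary glioma 2, 5.52, met it only because the other 3 secondary gliomas shared the value 5.61 exactly, so that any other value would have met it. It lay 0.0922 below them and says nothing about that sample.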

How the results depend on the processing

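Of 439 values of 26 named genes under the alternatives, 366 kept their direction and their side of the threshold, and all 10 members together gave 173 values, of which 129 did. Notch2 was the 1 member called lower, and the count was 0 with the replicate block, where its adjusted p was 0.0618, and without secondary glioma 3 and tertiary glioma 1, an alternative chosen after seeing the data. Leaving out 1 sample gave 0 to 1 called lower and 0 to 1 called higher. Notch1 made the count of members called higher 1 with no dim filter, median centring, array weights or an adjusted p under 0.10, and without both of those samples. For the other pathway genes the count called lower, 4, became 7 with array weights or an adjusted p under 0.10, and 2 to 5 over the samples left out in turn. Their count called higher, 0, became 2 with array weights and without both samples, and 0 to 3 over the samples left out. Over all genes the 915 called lower became 575 with the replicate block. The 151 called higher became 61 with the replicate block, 667 with array weights, 543 without both samples, 437 at an adjusted p under 0.10 and 27 to 781 over the samples left out. The cause of these changes was not tested.

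Several fold changes close to 0 changed sign without passing. With array weights Notch3 was at -0.0772, Dll3 at 0.0116, Hes1 at 0.0329 and Hes5 at 0.0217, and with median centring Dll3 was at 0.0271, Jag1 at 0.0072, Hes1 at 0.0356 and Hes5 at 0.013. With quantile normalization Hes1 was at 0.0351, Hes5 at 0.0191 and Rbpj at -0.0203, and with the replicate block Dll3 was at 0.0357 and Hes1 at 0.0017. With all probes averaged Jag1 was at 0.0377 and Rbpj at -0.1186, and the other Jag1 probes gave 0.0015 and 0.1458. Without secondary glioma 3 and tertiary glioma 1 Notch3 was at -0.017 and Hes1 at 0.0302. Over the samples left out in turn the range was -0.0661 to 0.2729 for Notch3, -0.1801 to 0.1393 for Dll3, -0.6096 to 0.4608 for Jag1, -0.0394 to 0.0225 for Hes1, -0.1691 to 0.1271 for Hes5, -0.2312 to 0.1846 for Rbpj, -0.0367 to 1.0766 for Dlk1 and -0.0342 to 0.2407 for Neurog1. The filter at the 50th percentile left Notch3, Hes1 and Hes5 untested. The labels do not say that same-numbered samples belong together, so the replicate block serves only as an alternative. The number of arrays limits these results, and no signal over background was available.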
